A study of Mus musculus with 3 samples.

Results

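Hermansky-Pudlak syndrome genes and the related BLOC and AP-3 genes encode the sorting machinery that carries pigment enzymes and transporters to the melanosome. The 10 genes described here were Dtnbp1, Bloc1s1 and Bloc1s3 of BLOC-1, Hps3, Hps5 and Hps6 of BLOC-2, Hps1 and Hps4 of BLOC-3, and Ap3b1 and Ap3d1 of AP-3. They were chosen by gene symbol for their part in melanosome biogenesis, and all 10 were among the 12852 genes of the expression table. Their RNA was measured by sequencing in the pigmented mouse melanoma line B16F10, in 2 libraries after knockdown of Med23 and 1 control library. The knockdown samples are titled siMed23A and siMed23B and carry the genotypes Med23 knockdown-1 and Med23 knockdown-2, and the control is titled siCtrl and is labelled wild type. All cells grew in the same serum-containing medium. The labels do not say whether A and B are different siRNAs or separate cultures. The p-values rest on the spread between the 2 knockdown libraries, which may be only technical, and on a spread borrowed from all tested genes. The lone control adds no spread. The joined header of the table did not tell the knockdown columns apart, so the order of their values below is that of the columns and names neither siRNA label. Levels are RPKM, in which reads are divided by the length of the transcript and the size of the library, which allows genes to be compared per length.

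Melanosomes are organelles related to lysosomes, and they mature as their enzymes arrive from endosomes. AP-3 is a coat adaptor that picks tyrosinase and other cargo at endosomes. BLOC-1 acts in forming the endosomal tubules that carry Tyrp1 and the copper pump Atp7a, BLOC-2 directs these tubules to melanosomes, and BLOC-3 activates the GTPases Rab32 and Rab38. Loss of many of these genes dilutes coat colour in mice, and in humans it causes albinism with bleeding because platelet granules need the same machinery. Med23 is part of Mediator, which bridges transcription factors and RNA polymerase II, and the series asked how it bears on pigment and DNA repair genes by way of Mitf, the transcription factor that directs melanocyte pigment genes.

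The promoters are shown first, because the E-box CACGTG and the M-box TCATGTG are letters that Mitf and its relatives read. RefSeq promoter windows (build GRCm38.p6), from 250 bases before the start of transcription to 50 after it, were found for all 10 genes. CACGTG stood in the windows of 5 of them, Hps1, Hps3, Hps5, Bloc1s1 and Bloc1s3, that is in 50% of the genes. It stood in 12.4% of the 7812 tested genes that matched a window and in 7.15% of all 32851 windows. The palindrome is the same on both strands, and in all 5 genes it was part of TCACGTG, read on either strand, which 7.67% of the matched tested genes held. In the lines below, 80 bases of each window are given from 5′ to 3′ on the gene's strand, from position -70 to position 10 counted from the start, or from -250 to -171 for Hps5. Capitals mark CACGTG and CATGTG.
Hps1 (chr19:42779969-42780048, minus strand): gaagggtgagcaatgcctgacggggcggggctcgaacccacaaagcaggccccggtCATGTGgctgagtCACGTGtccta
Hps3 (chr3:20035301-20035380, minus strand): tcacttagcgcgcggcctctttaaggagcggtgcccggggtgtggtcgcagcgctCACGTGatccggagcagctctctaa
Hps5 (chr7:46796052-46796131, minus strand): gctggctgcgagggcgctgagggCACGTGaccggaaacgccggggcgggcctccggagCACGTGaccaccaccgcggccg
Bloc1s1 (chr10:128923515-128923594, minus strand): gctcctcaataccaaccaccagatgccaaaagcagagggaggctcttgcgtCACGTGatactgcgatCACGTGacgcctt
Bloc1s3 (chr7:19508361-19508440, minus strand): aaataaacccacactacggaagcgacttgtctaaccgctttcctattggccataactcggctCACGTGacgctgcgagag
For contrast, Hps4 and Dtnbp1 are shown as genes whose windows hold no CACGTG. They were picked because their RNA rose, but so did that of Bloc1s1, which holds it. Dtnbp1 did not pass after the length and GC correction given below. Hps6, Ap3b1 and Ap3d1 hold no CACGTG either, did not pass the test and are not shown. Tyr, which encodes tyrosinase, is shown as a cargo gene with the M-box.
Hps4 (chr5:112343025-112343104, plus strand): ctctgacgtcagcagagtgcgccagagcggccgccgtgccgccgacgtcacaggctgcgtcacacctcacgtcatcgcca
Dtnbp1 (chr13:45002087-45002166, minus strand): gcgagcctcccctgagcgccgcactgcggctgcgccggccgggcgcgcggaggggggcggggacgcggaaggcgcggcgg
Tyr (chr7:87493503-87493582, minus strand): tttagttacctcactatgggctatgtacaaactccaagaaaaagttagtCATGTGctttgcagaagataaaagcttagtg

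In Hps1, Hps3, Bloc1s1 and Bloc1s3 the E-box lay next to the start of transcription. Its first base was at -15 in Hps3 and at -8 in Bloc1s3. Bloc1s1 held CACGTG at -19 and again at -3, and Hps5 held it farther out, at -227 and -192. Hps1 held CACGTG at -1 and the M-box TCATGTG at -15, and it was the only one of the 10 genes with an M-box in its window, against 2.48% of the matched tested genes. Hps1 has a further window that holds neither. Tyr held the M-box at -22. The letters CCGGAAG, read by ETS factors such as Elk1, which works with Med23, stood in 4 of the 10 windows, those of Hps1, Bloc1s1, Ap3b1 and Ap3d1, and in 22.7% of the matched tested genes. A match is a description of the letters and not a bound site.

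Med23 was 1.65 and 1.61 RPKM in the knockdown libraries, against 5.23 RPKM in the control. The control was 3.20-fold above the mean knockdown RPKM. Here and below log2 ratios are of RPKM + 1, a scale on which changes of low genes look smaller. On it Med23 had a log2 ratio of -1.24, with SE 0.11 and a limma adjusted p of 0.00121. Mitf was 4.23 and 3.51 RPKM in the knockdown libraries, against 9.003 RPKM in the control. The 7 melanocytic markers were Mitf, Sox10, Pmel, Mlana, Tyr, Tyrp1 and Dct. They summed to 2977 and 2868 RPKM after knockdown and to 6923 RPKM in the control, mostly from Dct, Tyrp1 and Pmel. All but Mitf and Sox10 are also in the cargo list below, so the sum is not a separate observation. Each marker was present in every library, but so was every gene in the table. Of 13 markers of immune, endothelial, epithelial and stromal cells, 4 were in the table, and they summed to 13.7 and 13.9 RPKM after knockdown and 19.6 RPKM in the control. Cd68, which made up most of that sum, was 10.04 and 10.1 RPKM after knockdown and 16.9 RPKM in the control and was called lower (limma adjusted p = 0.00329). Lyz2 was 1.19 and 1.18 RPKM after knockdown and 0.646 RPKM in the control and was called higher (limma adjusted p = 0.0305). Pdgfrb did not pass, and Col1a1 was too low to be tested. The part of these markers in the results was not tested. Ptprc, Cd3e, Pecam1, Cdh5, Krt5, Krt14, Epcam, Col3a1 and Acta2 were not listed. The values had been made equal in distribution across libraries before deposit, so they hold no read depth and cannot show a change in total RNA. In such bulk samples fewer cells of a type and less RNA per cell cannot be told apart.

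The BLOC and AP-3 genes did not move as a block after Med23 knockdown. By limma on log2(RPKM + 1), with Benjamini-Hochberg adjustment over all tested genes and a threshold of 0.05, 3 of the 10 rose, 1 fell and 6 did not pass. That is 40% called, against 50.3% of the 9722 tested genes, of which 26.3% were called higher and 24.0% lower. The genes that rose were Bloc1s1, Hps4 and Dtnbp1, and the gene that fell was Hps3. The median log2 ratio of the 10 genes was -0.01, against 0.01 over all tested genes, and their median absolute log2 ratio was 0.17, against 0.34 over all tested genes. In both knockdown libraries 4 of the 10 genes lay above the control and 4 below it, against 46.6% and 44.2% of tested genes. On the scale of RPKM + 1, Bloc1s1 alone differed by over 1.5-fold in each knockdown library, a size that 20.4% of tested genes reached. A difference of over 25% in each was reached by 3 of the 10 genes, against 44.9%, and one of over 2-fold by 0 of the 10, against 5.4%. All 10 genes passed the filter of a mean of at least 1 RPKM, with Hps6 just inside it. The control had no replicate, and when its SD was assumed to be 3 times larger than theirs, limma called 0 of the 10 genes and 2.01% of tested genes. Under that assumption 1 of the 10 genes, Bloc1s1, had an unadjusted limma p under 0.05. The share of tested genes under that unadjusted threshold was not counted, so this 1 gene cannot be set against it.

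**Figure D1:**
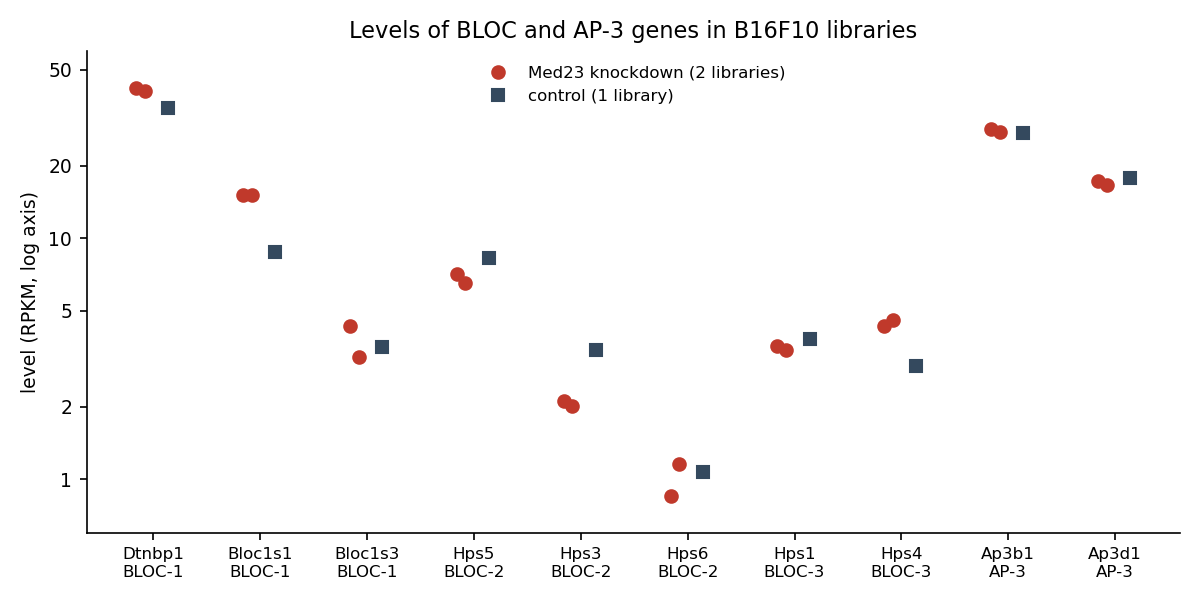
Level of each of the 10 BLOC and AP-3 genes in RPKM on a log axis, with the 2 Med23 knockdown libraries as red circles and the control library as a dark square, genes ordered by complex. Bloc1s1 and Hps4 sit higher and Hps3 lower after knockdown, while the AP-3 genes Ap3b1 and Ap3d1 nearly coincide between groups.

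Of the BLOC-1 genes, Dtnbp1 and Bloc1s1 rose and Bloc1s3 did not pass. Dtnbp1 encodes dysbindin, the subunit lost in sandy mice. It was 41.8 and 41.0 RPKM in the knockdown libraries, against 34.8 RPKM in the control. Both knockdown values lay above the control, as in 46.6% of tested genes, and the log2 ratio was 0.25 (SE 0.07, limma adjusted p = 0.0356). Dtnbp1 did not pass without an intensity trend (limma adjusted p = 0.0801) or after a correction for transcript length and GC content, which gave a log2 ratio of 0.06 (limma adjusted p = 0.582).

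Bloc1s1 encodes a small subunit that BLOC-1 shares with BORC, the complex that positions lysosomes. It was 15.2 and 15.1 RPKM in the knockdown libraries, against 8.74 RPKM in the control, a 1.73-fold higher mean RPKM. The knockdown libraries were nearly equal, with a mean of 15.2 ± 0.0246 RPKM (SD, n = 2). Both lay above the control, as in 46.6% of tested genes. The log2 ratio was 0.73 (SE 0.09, limma adjusted p = 0.00276). Bloc1s1 has the shortest transcript of the 10 genes, 613 bases, and after the length and GC correction its log2 ratio was 0.32 (limma adjusted p = 0.0173). Its annotation overlaps Rdh5, a retinol dehydrogenase gene on the same strand, over 720 of its 1288 exon bases. Rdh5 was 3.57 and 3.82 RPKM after knockdown and 2.10 RPKM in the control (log2 ratio 0.60, limma adjusted p = 0.00975), and reads of the shared exons cannot be told apart.

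Bloc1s3, the subunit altered in reduced pigmentation mice, was 4.33 and 3.21 RPKM in the knockdown libraries, against 3.55 RPKM in the control. The control lay between the knockdown values, and the log2 ratio of 0.06 had a 95% interval from -0.36 to 0.48. Changes within this interval are not excluded by these data.

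The other 5 BLOC-1 subunits included 2 that were called higher. Snapin, which binds SNARE proteins and is also shared with BORC, rose to 32.2 and 33.4 RPKM after knockdown, against 21.7 RPKM in the control (log2 ratio 0.58, SE 0.08, limma adjusted p = 0.00358). Bloc1s4, the cappuccino gene, was 6.30 and 6.33 RPKM against 4.86 RPKM in the control, and it passed narrowly (log2 ratio 0.32, limma adjusted p = 0.0495), with adjusted p = 0.0774 when no filter was set, 0.0553 after rescaling and 0.686 after the length and GC correction. Bloc1s5, the muted gene, was 6.70 and 7.03 RPKM after knockdown and 5.64 RPKM in the control and did not pass (limma adjusted p = 0.103). Bloc1s6, the pallid gene, was 9.32 and 9.90 RPKM after knockdown and 9.89 RPKM in the control. Bloc1s2, the third subunit shared with BORC, was 8.06 and 8.11 RPKM after knockdown and 9.15 RPKM in the control. After the length and GC correction Bloc1s5 was called higher (0.45) and Bloc1s2 lower (-0.48). Bloc1s2 has a listed pseudogene, and Snapin overlaps Ilf2 on the opposite strand over 354 exon bases, so both levels are uncertain where reads were shared. Ilf2 was 39.6 and 38.8 RPKM after knockdown and 28.8 RPKM in the control. Over the whole complex 4 of 8 subunits were called higher and 0 lower, against 26.3% and 24.0% of tested genes, so the share called was close to the 50.3% of all tested genes. After the length and GC correction 3 were called higher and 1 lower.

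In BLOC-2 the gene that moved was Hps3, which encodes the subunit lost in cocoa mice. It was 2.11 and 2.02 RPKM in the knockdown libraries, against 3.43 RPKM in the control, a 1.66-fold lower mean RPKM. Both knockdown values lay below the control, as in 44.2% of tested genes, and by more than they differed from each other. The log2 ratio was -0.53 (SE 0.11, limma adjusted p = 0.0134), and it was -0.43 after the length and GC correction (limma adjusted p = 0.0115). Hps3 overlaps Cp, the ceruloplasmin gene, on the opposite strand over 108 of its 9103 exon bases. Cp was 184 and 157 RPKM after knockdown and 21.6 RPKM in the control, so it moved opposite to Hps3, and whether the counting used strand is not given in the sources used here.

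Hps5, the ruby-eye-2 gene, was 7.12 and 6.50 RPKM in the knockdown libraries, against 8.27 RPKM in the control. Both values were below the control, but the log2 ratio of -0.25 did not pass (95% interval -0.52 to 0.03, limma adjusted p = 0.110). Hps6, the ruby-eye gene, had the lowest level of the 10, with 0.855 and 1.16 RPKM after knockdown and 1.07 RPKM in the control. The control lay between the knockdown libraries, and the 95% interval of the log2 ratio ran from -0.40 to 0.30. The level of Hps3 relative to Hps5 was 0.296 and 0.310 after knockdown and 0.415 in the control.

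BLOC-3 is made of Hps1 and Hps4. Hps4, the light ear gene, was 4.32 and 4.57 RPKM in the knockdown libraries, against 2.96 RPKM in the control, a 1.501-fold higher mean RPKM. Its log2 ratio was 0.46 (SE 0.11, limma adjusted p = 0.0204). Both knockdown values lay above the control, as in 46.6% of tested genes. The log2 ratio was 0.41 after the length and GC correction (limma adjusted p = 0.0121). Hps1, the pale ear gene, was 3.57 and 3.42 RPKM after knockdown and 3.81 RPKM in the control, with a log2 ratio of -0.10 (95% interval -0.38 to 0.18, limma adjusted p = 0.492). The level of Hps4 relative to Hps1, per length, was therefore 1.21 and 1.33 in the knockdown libraries and 0.778 in the control. The order of these partners was thus turned round in both knockdown libraries, relative to 1 control library with 2.96 and 3.81 RPKM. With the larger control SD Hps4 did not pass (limma adjusted p = 0.414). On the opposite strand Hps4 overlaps Gm20636 over 133 exon bases and Hps1 overlaps Gm16244 over 241, and neither neighbour has values here.

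The large AP-3 subunits stayed within 0.1 of 0 on the log2 scale. Ap3b1, the pearl gene, encodes a subunit altered in a human form of the syndrome. It was 28.5 and 27.7 RPKM in the knockdown libraries, against 27.4 RPKM in the control (log2 ratio 0.03, 95% interval -0.16 to 0.23). Ap3d1, the mocha gene, was 17.3 and 16.6 RPKM in the knockdown libraries, against 17.8 RPKM in the control (log2 ratio -0.07, 95% interval -0.29 to 0.15). The intervals exclude a change of 1.5-fold in either direction on this scale only under the assumption that the control varies like the knockdown libraries.

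Of the 4 small and medium AP-3 chains measured 3 were called, against 50.3% of tested genes, and their difference from the large subunits was not tested. The small chain Ap3s1 rose to 23.9 and 20.8 RPKM, against 13.3 RPKM in the control (log2 ratio 0.70, SE 0.11, limma adjusted p = 0.00546). Its paralog Ap3s2 was 11.5 and 11.9 RPKM after knockdown and 10.3 RPKM in the control and did not pass (limma adjusted p = 0.176). Both medium chains fell, Ap3m1 to 11.1 and 10.8 RPKM, against 14.6 RPKM in the control (log2 ratio -0.38, limma adjusted p = 0.0194), and Ap3m2 to 6.46 and 7.27 RPKM, against 10.2 RPKM in the control (log2 ratio -0.51, limma adjusted p = 0.0159). After the length and GC correction the log2 ratio of Ap3m1 was -0.08 and not past the test, and Ap3s2 was called higher (0.34). Ap3s1 and Ap3m1 have annotated pseudogenes, and Ap3m1 shares 2090 exon bases with Vcl on the opposite strand, so reads may have been split. Of the 6 AP-3 genes measured, 1 was called higher and 2 lower, a share close to the 50.3% of all tested genes, and after the length and GC correction 2 were called higher and 1 lower.

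**Figure D2:**
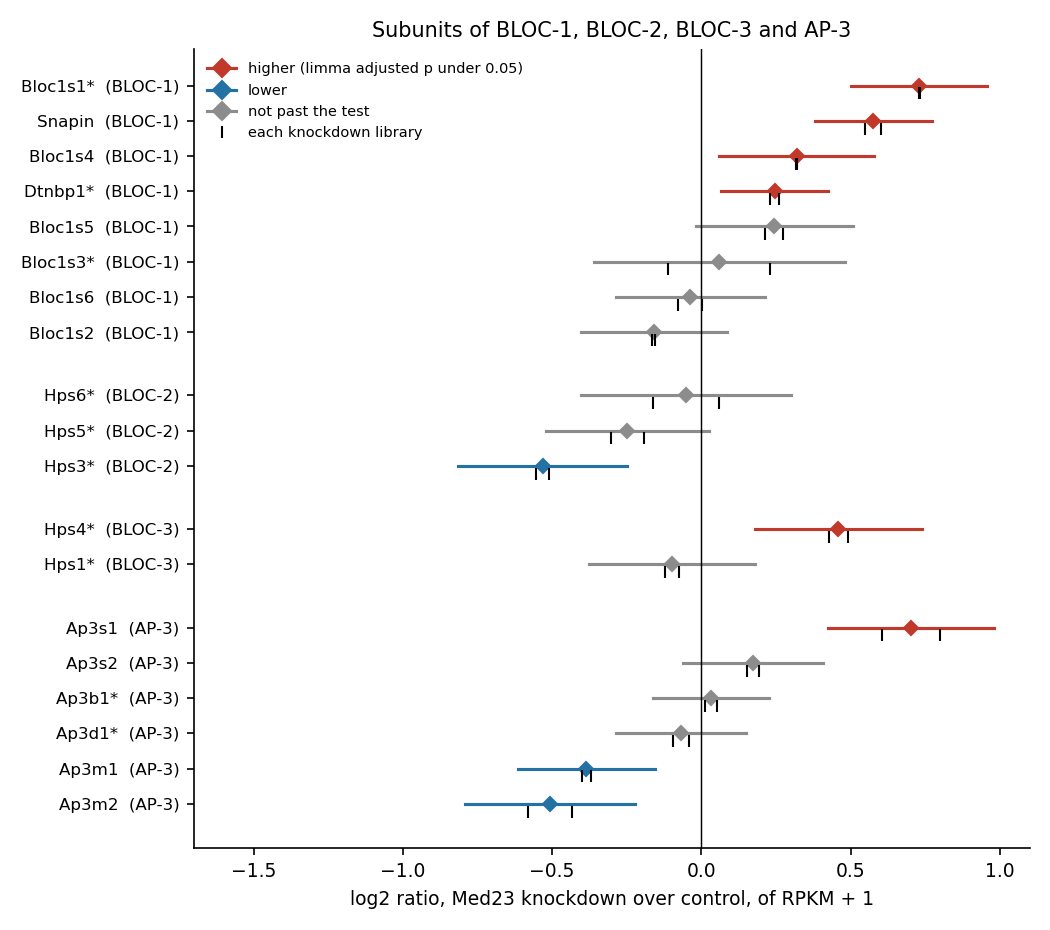
log2 ratio of RPKM + 1, Med23 knockdown over control, for every BLOC-1, BLOC-2, BLOC-3 and AP-3 subunit in the table, with the limma estimate as a diamond, its 95% interval as a line and each knockdown library as a tick. Asterisks mark the 10 genes described. Each of BLOC-1, BLOC-3 and AP-3 held subunits called higher beside subunits that did not pass, and AP-3 held calls in both directions.

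The order of levels among the 10 genes was nearly the same in every library. Dtnbp1, Ap3b1, Ap3d1, Bloc1s1 and Hps5 took the top places in that order in all 3 libraries, and Hps6 was lowest in each. In the control Dtnbp1 stood at the 90.6th percentile of all genes in the table and Hps6 at the 25.8th. Hps1, Bloc1s3, Hps3 and Hps4 lay close together in the control, between 2.96 and 3.81 RPKM, and there the order changed. Hps4 was 9th of 10 in the control and 7th and 6th in the knockdown libraries. Hps1 and Bloc1s3 exchanged places between the knockdown libraries, so their order does not differ beyond the spread.

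Most genes of the melanosome cargo list, called cargo genes here, fell. Whether the BLOC and AP-3 complexes carry the product of each of these genes was not tested. Of 10 cargo genes, 9 were called lower and 0 higher, against 24.0% and 26.3% of tested genes. Their median log2 ratio was -1.45, against -0.01 for the 10 BLOC and AP-3 genes, a difference that was not tested. Tyr was 10.9 and 8.71 RPKM in the knockdown libraries and 82.2 RPKM in the control (log2 ratio -2.95, limma adjusted p = 0.000239). The log2 ratio was -2.27 for the transporter Slc45a2, -1.60 for the anion transporter Oca2 and -1.59 for Pmel, which forms melanosome fibrils. Gpr143, a melanosomal receptor, did not pass, and after the length and GC correction it was called lower (-0.40, limma adjusted p = 0.0167), as were the other cargo genes. Earlier results of these data had already shown this fall, so it serves here as a background for the 10 genes and not as separate evidence.

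**Figure D3:**
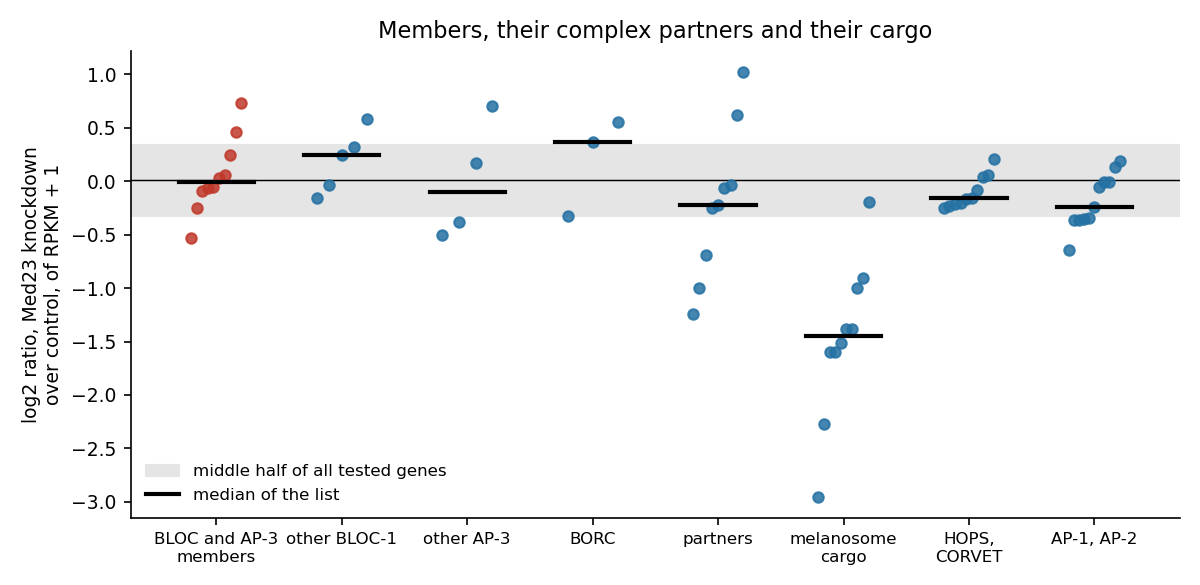
log2 ratio of RPKM + 1, Med23 knockdown over control, of each tested gene in 8 lists, with a bar at each list's median, a thin line at the median of all tested genes and a grey band over their middle part from the 25th to the 75th percentile. The 10 BLOC and AP-3 genes spread from -0.53 to 0.73 around a median of -0.01, while the cargo genes lie between -2.95 and -0.20.

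The GTPases that BLOC-3 activates went down with the cargo. Rab38 was 153 and 140 RPKM in the knockdown libraries, against 347 RPKM in the control (log2 ratio -1.24, SE 0.07, limma adjusted p = 0.000304). Rab32 was 1.57 and 1.87 RPKM in the knockdown libraries, against 3.38 RPKM in the control (log2 ratio -0.69, SE 0.13, limma adjusted p = 0.00886). Rab9, a GTPase of late endosomes that binds BLOC-3, went the other way with 14.3 and 14.01 RPKM after knockdown and 6.47 RPKM in the control (log2 ratio 1.02, limma adjusted p = 0.00127). Lyst, the gene of the beige mouse with giant lysosomes and melanosomes, fell with a log2 ratio of -0.996, which was -0.54 after the length and GC correction. Among 9 tested partners 2 were called higher and 4 lower, against 26.3% and 24.0% of tested genes. Of the 10 genes of HOPS and CORVET, which tether vesicles to late endosomes and lysosomes, 0 passed limma's test, against 50.3% of tested genes. At an unadjusted limma p under 0.05 the count was also 0, and the share of tested genes there was not counted. The log2 ratios of these 10 genes ran from -0.25 to 0.20. After the length and GC correction 1 of them, Tgfbrap1, a CORVET subunit named after its values were seen, was called higher (0.35, limma adjusted p = 0.0262). Vps11, Vps18, Vps39 and Vps41 ranked first by the smaller of the 2 library changes, with mean log2 ratios of -0.21, -0.23, -0.21 and -0.16.

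Among BORC genes outside BLOC-1, Kxd1 was 29.9 and 30.6 RPKM after knockdown and 20.3 RPKM in the control (log2 ratio 0.55, limma adjusted p = 0.00402). Borcs8 was 4.92 and 5.09 RPKM after knockdown and 3.67 RPKM in the control (log2 ratio 0.36, limma adjusted p = 0.0381, and 0.0671 when no filter was set). Borcs5 was 3.79 and 4.33 RPKM after knockdown and 5.33 RPKM in the control and did not pass, and Borcs7 was under the filter. After the length and GC correction Borcs5 was called lower (-0.52), while Borcs8 stood at 0.02 and no longer passed.

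The related adaptors AP-1 and AP-2, which act at the trans-Golgi, endosomes and plasma membrane, were also measured. Of 11 tested subunits 6 were called lower and 0 higher, against 24.0% and 26.3% of tested genes, with a median log2 ratio of -0.24. The AP-1 subunits Ap1g1, Ap1m1 and Ap1b1 fell with log2 ratios of -0.65, -0.36 and -0.36, and the AP-2 subunit Ap2a1 with -0.35. No test of the difference between these adaptors and AP-3 was made. With the larger control SD, 7 of the 52 tested genes in these further lists passed limma's test, against 2.01% of all tested genes. Of the 7 genes, 6 were cargo genes, among them Tyr, Slc45a2 and Pmel, and 1 was the partner Rab38. The AP-1 and AP-2 subunits that passed at that setting numbered 0. Med23, Mitf and all other BLOC-1 and AP-3 subunits did not pass either.

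Transcript length moved with the log2 ratio across all tested genes (Spearman -0.357 over 9614 genes, which share the same 3 libraries and are not independent), and so did GC content (0.178). The correction used the longest annotated transcript of each gene, and it left 3 of the 10 genes called, Bloc1s1 and Hps4 higher and Hps3 lower, against 53.4% of tested genes. Under it Hps5 stood at -0.11, Hps6 at -0.18 and Ap3b1 at 0.10, none past the test.

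**Figure D4:**
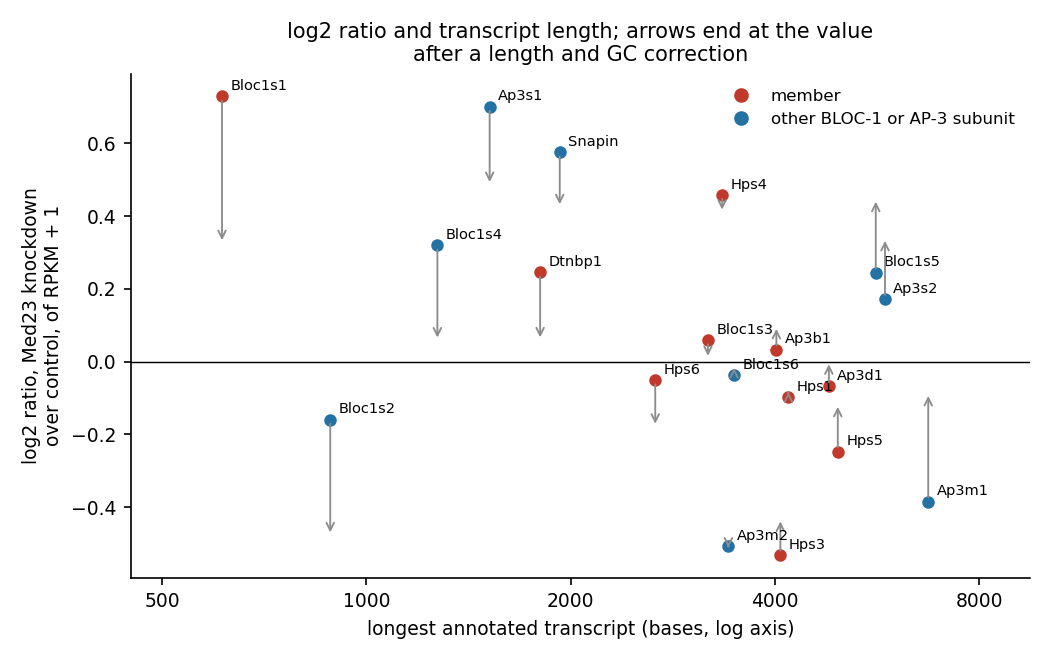
log2 ratio of RPKM + 1, Med23 knockdown over control, against the length of the longest annotated transcript in bases on a log axis, for the 10 genes in red and the other BLOC-1 and AP-3 subunits in blue. Arrows end at the value after the length and GC correction, which put the short Bloc1s1 at 0.32, against 0.73 without it, and left Hps4 and Hps3 at 0.41 and -0.43.

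The 5 genes with an E-box at their promoter had no common direction. Bloc1s1, with the E-box at -19 and -3, rose with a log2 ratio of 0.73, and Hps3, with the E-box at -15, fell with -0.53. Hps5, Hps1 and Bloc1s3 stood at -0.25, -0.10 and 0.06 and did not pass. The genes without the letters CACGTG in their windows had no common change either. Hps4 and Dtnbp1 rose, Dtnbp1 not past the test after the length and GC correction. Hps6, Ap3b1 and Ap3d1 stood at -0.05, 0.03 and -0.07 and did not pass.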

How the data were processed

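RNA of B16F10 cells was sequenced in 2 Med23 knockdown libraries and 1 control library. The deposited values were RPKM made by the authors. CASAVA 1.4, TopHat, Cufflinks and build mm9 are listed, without roles, in the submitters' processing notes, and the annotation and normalization step are not given in the sources used here. Sorted values were equal in 95.3% of positions (relative difference under 1e-09), so the RPKM had been quantile normalized. All 3 value columns were used.

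The 9722 genes averaging 1 RPKM or more were tested on log2(RPKM + 1), a scale that understates changes of low genes, with limma 3.58.1 in R 4.3.3 (intensity trend, Benjamini-Hochberg over all tested genes, threshold 0.05). Residual degrees of freedom were 1, all from the knockdown libraries, with a prior of 4.37, so the lone control is assumed to vary like them. The step was tested on simulated data with the same SD for all 3 libraries, so that run could not check this assumption. Length and GC were those of GENCODE M21 transcripts, found by gene ID for 98.1% of genes, and exon overlaps from the same annotation, which belongs to another build. Motifs were searched on both strands. CACGTG overlaps TCACGTG, and CATGTG overlaps TCATGTG. Lists were matched by symbol, older symbol or gene ID. The 10 genes, the lists and the rule for named genes were chosen with earlier results of these data known. The rule took the 10 genes, Med23, Mitf, other BLOC-1 and AP-3 subunits, and up to 4 genes of each further list ranked by the smaller change of the 2 libraries. No ranking of genes by likeness was made, because 3 libraries cannot separate patterns. Other settings tried were a pseudocount of 0.1, an omitted filter, a 5 RPKM minimum, rescaling by a trimmed mean, no intensity trend, a 3 times larger control SD, a length and GC correction, and each knockdown library left out. Python 3.11.15, pandas 2.3.3, numpy 2.4.6 and matplotlib 3.10.9 were used.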

Additional observations from a re-analysis of the deposited data

How the results depend on the processing

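Of the 10 BLOC and AP-3 genes 4 were called, and the count was 4 with a pseudocount of 0.1, with no filter or after rescaling, and 3 without an intensity trend or after the length and GC correction. It was 2 of the 5 genes left by a minimum of 5 RPKM, because fewer genes were tested. Under a control SD assumed 3 times larger it was 0, while 195 of all tested genes, against 4888, and 7 of the 52 tested genes in the further lists, against 28, were called, because the assumed error was larger. The number past 1.5-fold in both libraries was 1, and it was 3 at a limit of 25%, 0 at 2-fold, 2 with a pseudocount of 0.1 and 0 after the length and GC correction, and with either knockdown library left out it ran from 1 to 1. Under that correction the log2 ratio of Ap3d1 was 0.00387, against -0.07 without it, past the test in neither, and the cause was not tested. Leaving out a knockdown library leaves no residual degree of freedom, so those values have no test. Rescaling moved the median log2 ratio of all genes by -0.0143. No paired analysis was possible because the control is 1 library and shares no pairing with the knockdown libraries. Read depth is unknown, so no counting error can be given.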
